A study of Homo sapiens with 8 samples.

Results

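The transcriptomes compared here came from H1, a line of human embryonic stem cells, that had been given a lentivirus labelled OE-OCT4 or a lentivirus labelled OE-SOX2. OCT4 is the protein of the gene POU5F1. The members are the 2 arrays titled OE-OCT4 and the 2 titled OE-SOX2, 4 of the 8 Illumina arrays in the study, and they were set directly against each other with no control array in the contrast. All 8 samples share the line, the mTeSR medium on Matrigel, the polybrene and the lentiviral transduction. The other 4 arrays (2 EF1a-control, 2 OE-NANOG) entered the estimate of the spread and the choice of probes, not the contrast. H1 is 1 line, and the labels give neither the time from transduction to harvest nor any selection of transduced cells. The labels do not state whether the replicates of a group were grown and transduced separately. The p-values thus reflect the spread among these samples alone, and that spread may be technical. In a pooled culture, fewer cells of a kind and less RNA per cell cannot be told apart.

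OCT4 and SOX2 are transcription factors that bind next to each other on DNA at many enhancers of pluripotent cells, and together with NANOG they hold these cells in the pluripotent state. They are not interchangeable: SOX2 also acts in the neural progenitors that form from embryonic stem cells, with its relatives of the SOX family, while OCT4 is switched off early in neural development. Changing the dose of either factor is known to move embryonic stem cells out of self-renewal.

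Values are the authors' quantile-normalised intensities, a brightness on a linear scale that ran from 86.3 to 22884 with a median of 117.1 on every array. Of 47323 probes, 21828 exceeded an intensity of 123.7 on at least 2 arrays, and these represented 12436 genes, each by its brightest probe. Differences are OCT4 minus SOX2 on the log2 scale after background correction with an added offset of 50, so a positive value is higher on the OCT4-labelled arrays, and the offset understates the change of dim genes. The correction takes away brightness that all probes share, so these differences are larger for dim genes than the ratio of the intensities printed beside them. A gene is called where its limma p, adjusted by the Benjamini-Hochberg method over the 12436 genes, is under 0.05. Each adjusted p below is from that test.

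Probes of the transduced factors did not separate the groups the way the labels do. The SOX2 probe ILMN_2177156 read 885 and 1056 on the OCT4-labelled arrays against 565 and 502 on the SOX2-labelled arrays, and 959 and 1337 on the control arrays. Both arrays labelled SOX2 thus lay below every array labelled OCT4 or control, and the difference passed the test (log2 difference 0.91, SE 0.18, adjusted p = 0.0255). The other SOX2 probe, ILMN_1770635, gave 946 and 1257 against 678 and 1071, with overlap between the groups (0.37, SE 0.24, adjusted p = 0.429). For POU5F1, probe ILMN_1705546 read 1793 and 1501 on the OCT4-labelled arrays, 2161 and 2721 on the SOX2-labelled arrays and 3447 and 2833 on the control arrays. The OCT4-labelled arrays were the lowest here, although the difference did not pass (-0.58, 95% interval -0.94 to -0.21, adjusted p = 0.0880). The second POU5F1 probe, ILMN_1665632, lay between 120.3 and 146 on these arrays, close to the filter intensity. The NANOG probes ILMN_1659013 and ILMN_3307710 differed by -0.13 (95% interval -0.60 to 0.34) and 0.04 (-0.27 to 0.35), and neither passed. The adjusted p of these single probes is over the 21828 probes. The labels and the annotation used here do not place these probes within the transcripts. If a probe lies outside the stretch that a vector carries, its signal is no check of that vector. The arrays are therefore called OCT4-labelled and SOX2-labelled throughout, and every direction below rests on those labels.

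The cells carried the markers of embryonic stem cells. All 8 of the 8 such markers on the array were over the filter intensity on all 4 arrays, with summed intensities of 24911 to 25768 on the OCT4-labelled and 21748 to 25403 on the SOX2-labelled arrays. Of 5 markers each, 4 trophectoderm, 3 mesendoderm and 2 neural markers lay under it on all 4 arrays. The OCT4-labelled replicates correlated at 0.991 across genes and the SOX2-labelled replicates at 0.969, where genes are not independent replicates. SOX2-labelled replicate 2 stood apart, with correlations of 0.931 to 0.969 to the other 7 arrays, and 303 genes differed by more than 1 log2 unit between the SOX2-labelled replicates against 42 between the OCT4-labelled ones. Counts are therefore given with and without single arrays. The count over all genes also shifts with the array left out, as given next. A list's count without an array has to be read against that shift.

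In total, 858 genes differed between the vectors, 6.9% of those tested. Of these, 372 (2.99%) were higher on the OCT4-labelled arrays and 486 (3.91%) on the SOX2-labelled arrays. The count of calls in each gene list below has to be read against these shares. At an unadjusted p under 0.05 the number was 2877. Differences of at least 2-fold numbered 74 toward OCT4 and 187 toward SOX2, and of at least 4-fold 9 and 20. For none of the 858 did the groups' arrays overlap, but 48.7% of all genes tested had no overlap either. Without overlap, leaving out 1 array cannot turn the direction of a call, so a kept direction there is no support. With SOX2-labelled replicate 2 left out, 859 genes were called, 641 of them among the 858. Without SOX2-labelled replicate 1 the count was 3273, including 854 of the 858. It was 238 without OCT4-labelled replicate 1, 278 without OCT4-labelled replicate 2 and 378 without either NANOG array. With the 4 arrays of the comparison alone, 184 genes were called, 54 toward OCT4 and 130 toward SOX2, so 70.7% were higher on the SOX2-labelled arrays against 56.6% with all 8 arrays. All 858 kept their direction under all 20 alternatives, and 165 (52 toward OCT4, 113 toward SOX2) passed whichever single array was left out. Of the 132 called genes named here, 56 did so, and these are called stable below, while each of the rest lost the call without at least 1 array. The p given in brackets for a gene that is not stable is the highest adjusted p with 1 array left out.

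**Figure D1:**
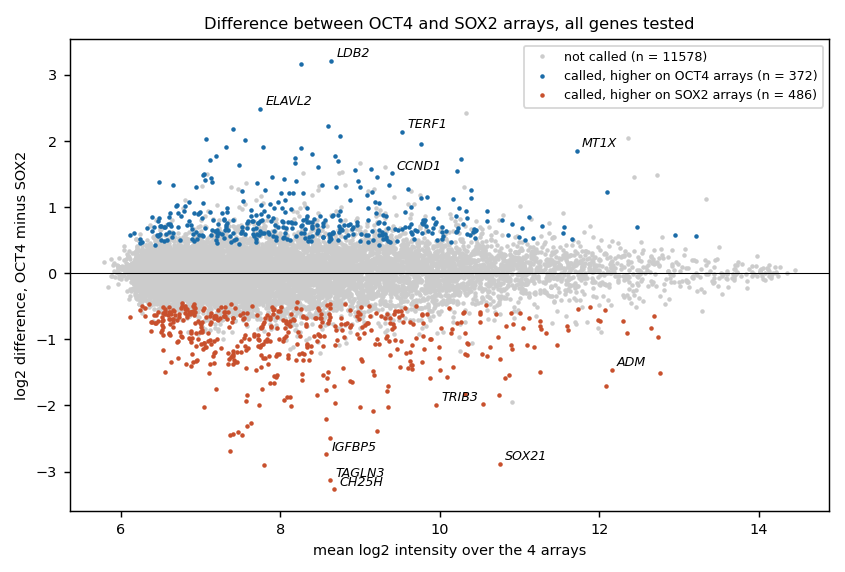
Log2 difference (OCT4-labelled minus SOX2-labelled) of each of the 12436 genes against its mean log2 intensity over the 4 arrays. Blue points are the 372 genes called higher on the OCT4-labelled arrays, red points the 486 called higher on the SOX2-labelled arrays and grey points the genes not called; a few named genes are marked, and the differences past 2 log2 units lie mostly at low to middle intensities.

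The plot of difference against mean intensity shows the calls at all levels of brightness. The control arrays, outside the contrast, give a reference for both directions. For 456 of the 486 genes higher on the SOX2-labelled arrays (93.8%), the control mean lay nearer the OCT4 mean, against 69.3% of all genes. Among the 372 genes higher on the OCT4-labelled arrays, the control mean was nearer the OCT4 mean for 287 (77.2%). In 225 of the 858 (26.2%, against 4.67% of all genes tested), both OCT4-labelled arrays lay on one side of both control arrays and both SOX2-labelled arrays on the other. No test was made of these shares.

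The largest differences toward OCT4 were in LDB2, a cofactor that binds LIM-domain transcription factors, and CNRIP1, which binds the tail of a cannabinoid receptor. LDB2 read 1274.5 and 1234 on the OCT4-labelled arrays and 180.2 and 166 on the SOX2-labelled arrays, and the difference was 3.21 (SE 0.24, adjusted p = 0.000345). The control arrays read 1657 and 943, so here the SOX2-labelled arrays were the low ones. CNRIP1 read 1008 and 911 on the OCT4-labelled arrays and 137 and 152 on the SOX2-labelled arrays, a difference of 3.17 (SE 0.12, adjusted p = 3.22e-05), and 2 of its 3 further probes passed the same way. Its control arrays read 219 and 212, far nearer the SOX2-labelled ones, so here the OCT4-labelled arrays were the ones that stood apart. ELAVL2, a neuronal RNA-binding protein, read 499 and 607 on the OCT4-labelled arrays and 165 and 109 on the SOX2-labelled arrays (2.49, SE 0.25, adjusted p = 0.00144).

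PCDH18, a protocadherin, read 878 and 879 on the OCT4-labelled arrays and 283 and 174 on the SOX2-labelled arrays (2.23, SE 0.25, adjusted p = 0.00201). The OCT4-labelled replicates were almost equal and the SOX2-labelled ones well below. TERF1, a telomere-binding protein of the shelterin complex and a marker of pluripotent cells, read 1427 and 1776.5 on the OCT4-labelled arrays and 439.8 and 355 on the SOX2-labelled arrays (2.14, SE 0.16, adjusted p = 0.000367). Its further probe had the same sign but did not pass. COL5A2, a chain of fibrillar collagen, read 1047 and 814 on the OCT4-labelled arrays and 266 and 238 on the SOX2-labelled arrays (2.07, SE 0.15, adjusted p = 0.000318). EBF3, a helix-loop-helix transcription factor, read 279 and 355 on the OCT4-labelled arrays and 104 and 113 on the SOX2-labelled arrays, where it was under the filter. With those arrays set at the filter intensity, the uncorrected intensity was at least 2.54-fold higher on the OCT4-labelled arrays (adjusted p = 0.000369), and "at least" is used in this sense below. For COL5A2 and EBF3 the control arrays (255 and 270.5, and 109 and 111) lay with the SOX2-labelled arrays.

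The rest of the 15 largest differences toward OCT4 ran from 2.18 to 1.80. LRRC3B, a leucine-rich repeat membrane protein, differed by 2.18, ZDHHC22, of a family of palmitoyltransferases, by 2.01, and NSG1, a protein of neuronal vesicle traffic, by 1.96. FER, a tyrosine kinase, differed by 1.91, MRAP2, an accessory protein of melanocortin receptors, by 1.89, MT1X, a metal-binding metallothionein, by 1.85, and SRGAP1, a GTPase-activating protein of SLIT and ROBO signalling, by 1.80. All of the 15 are stable except MT1X (adjusted p = 0.0732 without OCT4-labelled replicate 1) and CLC, a galectin, whose OCT4-labelled replicates differed widely. CLC read 602 and 214 on the OCT4-labelled arrays and 118 and 131 on the SOX2-labelled arrays (1.92, SE 0.47, adjusted p = 0.0476), and without 1 array its adjusted p reached 0.138; the call was lost without OCT4-labelled replicate 1, SOX2-labelled replicate 2 or any 1 control or NANOG array.

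The largest differences toward SOX2 were in CH25H, an enzyme that hydroxylates cholesterol, and TAGLN3, a neuronal relative of the actin-binding protein transgelin. CH25H read 154 and 197 on the OCT4-labelled arrays and 1282 and 1339 on the SOX2-labelled arrays, a difference of -3.27 (SE 0.28, adjusted p = 0.000610). TAGLN3 read 153 and 203 on the OCT4-labelled arrays and 1109 and 1327 on the SOX2-labelled arrays (-3.13, SE 0.22, adjusted p = 0.000318), and its further probe passed the same way. In both genes the control arrays (142 and 237, and 194.5 and 259) lay near the OCT4-labelled ones. SOX21, a repressor of the SOX family that acts in neural progenitors, read 521 and 886 on the OCT4-labelled arrays and 4774.5 and 4662 on the SOX2-labelled arrays (-2.88, SE 0.26, adjusted p = 0.000830). It was the brightest of the 15, and the SOX2-labelled replicates were nearly equal while the OCT4-labelled ones were not.

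GJA4, a connexin of gap junctions, read 121 and 125 on the OCT4-labelled arrays and 543.5 and 778 on the SOX2-labelled arrays (-2.91, SE 0.20, adjusted p = 0.000318). IGFBP5, which binds insulin-like growth factors, read 187 and 192 on the OCT4-labelled arrays and 822 and 1284 on the SOX2-labelled arrays (-2.74, SE 0.20, adjusted p = 0.000318). Several of these genes were under the filter intensity on both OCT4-labelled arrays. CD1C, which presents lipid antigens, read 102 and 112 on the OCT4-labelled arrays and 522 and 407 on the SOX2-labelled arrays, at least 3.73-fold higher on the latter (adjusted p = 0.000234). SERPINB3, a protease inhibitor, was at least 3.64-fold higher, SIX6, a transcription factor of the developing eye, at least 3.55-fold and WNK4, a kinase that regulates ion transport, at least 3.48-fold (adjusted p = 0.000482, 0.000234 and 0.00190). They read 444 and 456, 492 and 391, and 319 and 580 on the SOX2-labelled arrays.

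WNT10B, a WNT ligand, read 126 and 115 on the OCT4-labelled arrays and 413 and 535 on the SOX2-labelled arrays (-2.45, SE 0.16, adjusted p = 0.000234). LIPA, the lysosomal acid lipase, read 289 and 315 on the OCT4-labelled arrays and 1483 and 1309.7 on the SOX2-labelled arrays (-2.38, SE 0.14, adjusted p = 0.000234), and here the control arrays (364 and 445.5) were a little above the OCT4-labelled ones. EMP1, an epithelial membrane protein, differed by -2.32, TM4SF1, a membrane protein with 4 spans of the membrane, by -2.27, and MIR503HG, a long noncoding RNA, by -2.21. GLIPR1L1 (-2.49) was the only gene of these 15 that is not stable; its adjusted p rose to 0.0876 when an OCT4-labelled array was left out, and the call was lost without either of them.

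**Figure D2:**
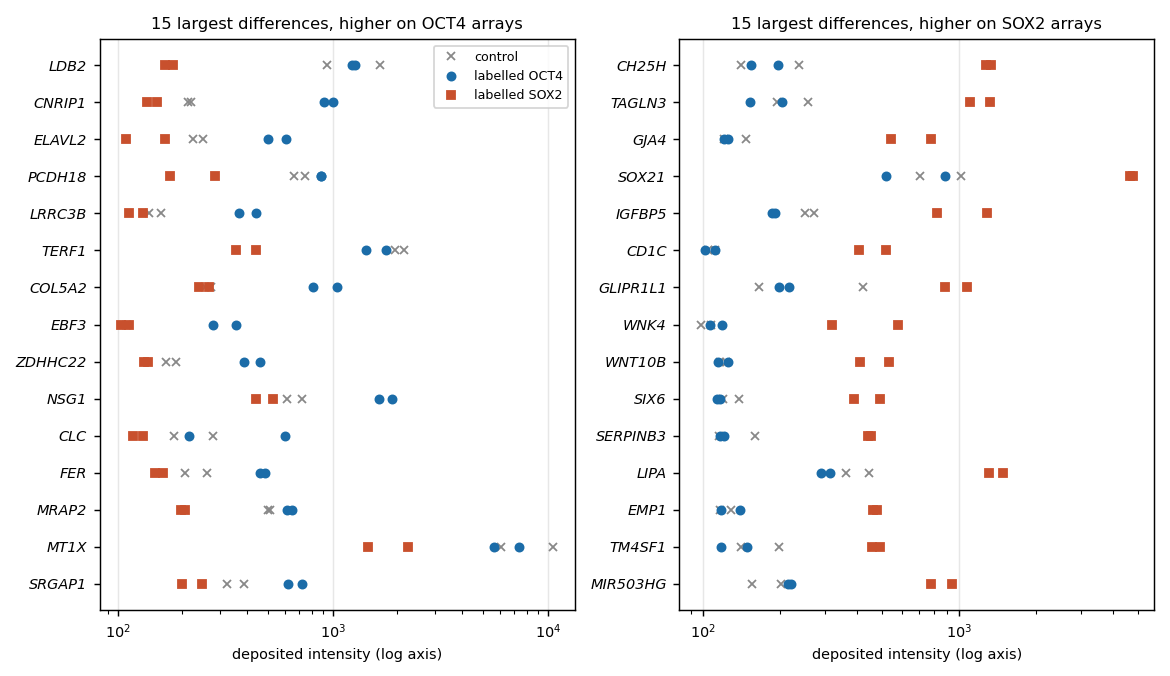
Deposited intensity (log axis) on each array for the 15 genes with the largest difference in each direction, higher on the OCT4-labelled arrays at left and on the SOX2-labelled arrays at right. Circles are the OCT4-labelled, squares the SOX2-labelled and crosses the control arrays; the groups do not overlap in any of these 30 genes, and in the right panel the control arrays lie mostly with the OCT4-labelled ones, while in the left panel they fall on either side.

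The plot of the 30 genes by array shows the control crosses beside the blue circles for GJA4, CD1C, WNK4 and SIX6, and beside the red squares for COL5A2 and EBF3. For MRAP2, NSG1 and SRGAP1 they lie between the groups.

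Many genes of the integrated stress response were higher on the SOX2-labelled arrays, 15 of 30 measured. In this pathway, kinases that sense amino acid shortage, unfolded protein, haem loss or double-stranded RNA phosphorylate a translation initiation factor, and the transcription factor ATF4 is then translated and switches on genes for amino acid synthesis, transport and stress. Those 15 compare with 3.91% of all genes tested, and 1 member, VLDLR, was called higher on the OCT4-labelled arrays (2.99% of all genes tested). Of the 30, 27 had differences below 0. The median difference of the list was -0.69, against 0.01 over all genes tested.

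TRIB3, a pseudokinase induced by ATF4, read 469.8 and 620.4 on the OCT4-labelled arrays and 2451 and 1673 on the SOX2-labelled arrays (-1.995, SE 0.22, adjusted p = 0.00189). DDIT3, the transcription factor CHOP, read 226.5 and 229 on the OCT4-labelled arrays and 621 and 809.7 on the SOX2-labelled arrays (-1.85, SE 0.14, adjusted p = 0.000378). The groups did not overlap in either gene, and the control arrays (249 and 292, and 177.5 and 173) lay below the OCT4-labelled ones. STC2, a secreted glycoprotein, read 387 and 385 on the OCT4-labelled arrays and 942 and 1062 on the SOX2-labelled arrays (-1.48, SE 0.18, adjusted p = 0.00332). INHBE, a subunit of activin, read 213 and 318.5 on the OCT4-labelled arrays and 740.2 and 614 on the SOX2-labelled arrays (-1.54, SE 0.26, adjusted p = 0.0117). ATF3, a transcription factor that follows ATF4, read 341 and 405 on the OCT4-labelled arrays and 705 and 1041 on the SOX2-labelled arrays (-1.31, SE 0.22, adjusted p = 0.0112). The groups did not overlap in any of the 3, though the SOX2-labelled replicates of ATF3 were apart.

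PCK2, the mitochondrial form of a gluconeogenic enzyme, read 461 and 762 on the OCT4-labelled arrays and 1124 and 1854 on the SOX2-labelled arrays (-1.35, SE 0.30, adjusted p = 0.0352). DDIT4, an inhibitor of the growth kinase mTOR, read 624 and 698 on the OCT4-labelled arrays and 1611 and 1903 on the SOX2-labelled arrays (-1.47, SE 0.34, adjusted p = 0.0378), but its control arrays read 1814 and 774 and so spanned most of that range. SESN2, which restrains mTOR when leucine is short, differed by -1.01 (adjusted p = 0.0433). VLDLR, a lipoprotein receptor, read 403 and 394 on the OCT4-labelled arrays and 296 and 273 on the SOX2-labelled arrays (0.56, SE 0.13, adjusted p = 0.0355). ATF4 itself differed by -0.34 and did not pass (adjusted p = 0.319).

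TRIB3, DDIT3 and STC2 are stable. INHBE and ATF3 lost the call without OCT4-labelled replicate 1 (adjusted p up to 0.0732 and 0.0920), and PCK2, DDIT4, SESN2 and VLDLR without several arrays (up to 0.210, 0.204, 0.221 and 0.185). The number of members higher on the SOX2-labelled arrays was 4 without OCT4-labelled replicate 1, 5 with the 4 arrays of the comparison alone and 10 to 15 without any other array. The median lay between -0.90 and -0.62 under all 20 alternatives. The replicates carried it alike: relative to the mean over the 8 arrays, the list's median was 0.61 on each SOX2-labelled array, -0.13 and 0.09 on the OCT4-labelled arrays and -0.26 and -0.13 on the control arrays.

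**Figure D3:**
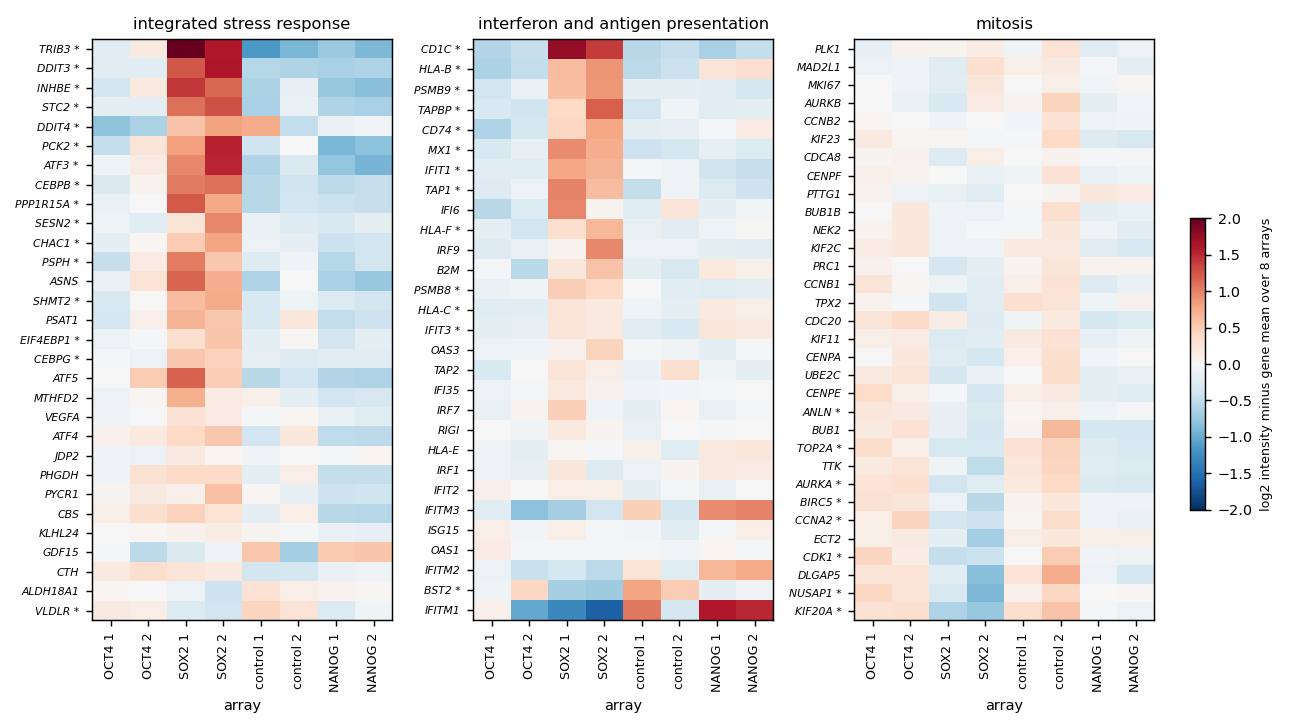
Log2 deposited intensity of each measured member of 3 gene lists on each of the 8 arrays, minus the gene's mean over the 8 arrays, with red above and blue below the mean and the colour scale ending at 2 log2 units either way. Asterisks mark the genes called between the OCT4-labelled and SOX2-labelled arrays; the columns SOX2 1 and SOX2 2 are red in most rows of the first and second panels and pale blue in the lower rows of the third, where the differences are smaller.

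The neighbouring groups of amino acid metabolism moved the same way in part. Among 18 measured cytosolic aminoacyl-tRNA synthetases, which charge tRNAs with amino acids, 3 were called higher on the SOX2-labelled arrays and 0 on the OCT4-labelled arrays. Over all genes tested the shares were 3.91% and 2.99%. WARS1, for tryptophan, read 1043 and 1117 on the OCT4-labelled arrays and 3247 and 3088 on the SOX2-labelled arrays (-1.59, SE 0.11, adjusted p = 0.000318). SARS1, for serine, read 416 and 393 on the OCT4-labelled arrays and 749 and 762 on the SOX2-labelled arrays (-0.98, SE 0.10, adjusted p = 0.00180). Both are stable. IARS1, for isoleucine, read 1141 and 1326 on the OCT4-labelled arrays and 1776 and 1883 on the SOX2-labelled arrays (-0.59, SE 0.13, adjusted p = 0.0283); its call was lost without any 1 OCT4 or NANOG array or SOX2-labelled replicate 2 (adjusted p up to 0.188). The median of the 18 was -0.14, and at an unadjusted limma p under 0.05 the counts were 6 toward SOX2 and 0 toward OCT4.

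Among 20 amino acid transporters, 3 were called higher on the SOX2-labelled arrays (3.91% of all genes tested) and 0 on the OCT4-labelled arrays (2.99%). The counts were 8 and 0 at an unadjusted limma p under 0.05, and the median was -0.18. SLC3A2, the heavy chain shared by several exchangers, read 1044 and 1036 on the OCT4-labelled arrays and 2364 and 2455.5 on the SOX2-labelled arrays (-1.25, SE 0.12, adjusted p = 0.000840), but its further probe pointed the other way and the mean of both probes gave adjusted p = 0.514. SLC6A9, a glycine transporter, differed by -1.15 (adjusted p = 0.00857) and SLC7A11, the cystine exchanger, by -1.11 (adjusted p = 0.0213). Neither is stable (0.0728 and 0.149). The count of 3 was 1 without OCT4-labelled replicate 1, 5 without either control array and 7 without SOX2-labelled replicate 1.

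Promoters of these genes were searched for the composite C/EBP-ATF element, the site through which ATF4 and C/EBP partners act, spelled TGATGNAA or, on the other strand, TTNCATCA. RefSeq promoter sequences, from 250 bases before to 50 after the start site on GRCh38.p14, were matched by gene for 9937 of the 12436 genes. The element was found in 1.78% of them, in 6 of 299 genes higher on the OCT4-labelled arrays (2.01%) and in 12 of 390 higher on the SOX2-labelled arrays (3.08%). It was in 3 of 24 measured stress response genes (12.5%), and in 2 of the 11 called higher on the SOX2-labelled arrays. The called genes named here with a match were ATF3, SLC3A2 and IARS1, each higher on the SOX2-labelled arrays. Of these, only ATF3 is in the stress response list. Their stretches are shown because this element matched more of the called genes named here than the octamer or the SOX site below. Capitals mark the match. The ATF3 stretch is chr1:212565170-212565269 on the plus strand, with the match starting at -191 from the start site. That of SLC3A2 is chr11:62881719-62881748 on the plus strand, with the match at 38, and that of IARS1 is chr9:92293698-92293756 on the minus strand, with the match at -13.
ATF3: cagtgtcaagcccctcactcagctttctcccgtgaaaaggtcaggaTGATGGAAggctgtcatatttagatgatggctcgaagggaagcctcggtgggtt
SLC3A2: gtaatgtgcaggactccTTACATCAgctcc
IARS1: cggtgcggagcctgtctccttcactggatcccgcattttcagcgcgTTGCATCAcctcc
The match in ATF3 reads in the forward direction and those in SLC3A2 and IARS1 in the reverse direction. The octamer ATTTGCAT (ATGCAAAT on the other strand), to which OCT4 binds, was in 1.40% of the promoters, in 1.34% of those higher on the OCT4-labelled arrays and in 1.54% of those higher on the SOX2-labelled arrays. Of the called genes named here, EGLN3 (toward OCT4) and SFRP2 (toward SOX2) had it. The SOX site CCTTTGTT (AACAAAGG) was in 0.996%, 1.67% and 0.769%, and the called genes named here that had it were KCND2 (toward OCT4) and CD74 (toward SOX2). A match is a description of these letters in this window, and no test was made of the shares.

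A share of the genes of antigen presentation and the interferon response was also higher on the SOX2-labelled arrays, 12 of 29 measured against 3.91% of all genes tested. Interferons induce antiviral proteins and the machinery by which peptides are cut by the immunoproteasome, carried into the endoplasmic reticulum and loaded on class I molecules. Beside these 12, 1 gene was called higher on the OCT4-labelled arrays (2.99% of all genes tested), and the list had 25 differences below 0 and a median of -0.56. Beside CD1C, the examples were HLA-B, PSMB9, TAPBP, CD74 and MX1.

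HLA-B, a class I heavy chain, read 296 and 327 on the OCT4-labelled arrays and 703 and 843 on the SOX2-labelled arrays (-1.44, SE 0.13, adjusted p = 0.000840); its probe may also bind other class I genes. PSMB9, a subunit of the immunoproteasome, read 107.5 and 128 on the OCT4-labelled arrays and 213 and 255 on the SOX2-labelled arrays (-1.35, SE 0.17, adjusted p = 0.00333). TAPBP, which loads peptides on class I molecules, read 248 and 233 on the OCT4-labelled arrays and 406 and 702 on the SOX2-labelled arrays (-1.31, SE 0.25, adjusted p = 0.0191). In TAPBP the SOX2-labelled replicates were far apart. CD74, the invariant chain of class II molecules, read 170 and 203 on the OCT4-labelled arrays and 346 and 444 on the SOX2-labelled arrays (-1.28, SE 0.17, adjusted p = 0.00492). MX1, an antiviral GTPase, read 233 and 258 on the OCT4-labelled arrays and 552 and 475 on the SOX2-labelled arrays (-1.21, SE 0.13, adjusted p = 0.00184).

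BST2, a protein that tethers viruses to the cell surface, went the other way and read 321 and 456 on the OCT4-labelled arrays and 218 and 209 on the SOX2-labelled arrays (0.99, SE 0.19, adjusted p = 0.0204). The control arrays of BST2 (595 and 487) were above all 4. ISG15, a ubiquitin-like protein among the best known interferon targets, differed by -0.003 (adjusted p = 0.992) and IFITM3, another, by -0.003 (adjusted p = 0.996). CD1C, HLA-B, PSMB9, CD74 and MX1 are stable, though CD74 lost the call with the 4 arrays of the comparison alone (adjusted p = 0.0525), and TAPBP and BST2 are not (adjusted p up to 0.121 and 0.107). The count of 12 was 6 without either OCT4-labelled array, 5 with the 4 arrays of the comparison alone and 8 to 15 without any other array.

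Genes of mitosis differed in the other direction, by smaller amounts. Of 32 measured, 8 were called higher on the OCT4-labelled arrays (2.99% of all genes tested) and 0 on the SOX2-labelled arrays (3.91%; 21 and 0 at an unadjusted limma p under 0.05), with 29 differences above 0 and a median of 0.40. KIF20A, a kinesin of cytokinesis, read 902.5 and 922 on the OCT4-labelled arrays and 478 and 436.5 on the SOX2-labelled arrays (1.07, SE 0.13, adjusted p = 0.00273). NUSAP1, which bundles spindle microtubules, read 1827 and 1666.5 on the OCT4-labelled arrays and 1108 and 735 on the SOX2-labelled arrays (0.99, SE 0.20, adjusted p = 0.0246). CDK1, the kinase that drives entry into mitosis, read 844.5 and 699 on the OCT4-labelled arrays and 451 and 465 on the SOX2-labelled arrays (0.80, SE 0.18, adjusted p = 0.0344). The OCT4-labelled arrays lay in the range of the control arrays for CDK1 (633 and 893), with the SOX2-labelled arrays below both.

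CCNA2, a cyclin partner of that kinase, differed by 0.69, BIRC5, the apoptosis inhibitor survivin, by 0.64 and AURKA, a spindle kinase, by 0.63, with adjusted p of 0.0357, 0.0496 and 0.0177. MKI67, a common proliferation marker, differed by -0.04 and did not pass (adjusted p = 0.928). KIF20A alone of these is stable; NUSAP1, CDK1, CCNA2, BIRC5 and AURKA reached adjusted p of 0.155, 0.214, 0.210, 0.229 and 0.117. The count of 8 fell to 1 without either OCT4-labelled or either NANOG array, was 5 without SOX2-labelled replicate 2 and 7 without either control array, and was 15 without SOX2-labelled replicate 1. The calls over all genes also rose without SOX2-labelled replicate 1, as given above, so the rise was not particular to this list. The list's median lay between 0.37 and 0.43 under all alternatives.

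DNA replication genes showed 1 call among 36, MCM6 of the replicative helicase, which read 2807 and 3247 on the OCT4-labelled arrays and 2152.5 and 1323 on the SOX2-labelled arrays (0.86, SE 0.21, adjusted p = 0.0481; not stable, 0.241). MCM4, its partner, differed by 0.80 (adjusted p = 0.0823), and POLE, a DNA polymerase, by -0.56 (adjusted p = 0.292); neither passed. The share over all genes tested, beside which the counts of this list and the next stand, was 6.9%. Among 18 regulators of G1, 1 was called. It was CCND1, the cyclin that starts the cycle in many cells and a target of WNT signalling, which read 1327 and 1046 on the OCT4-labelled arrays and 439 and 441 on the SOX2-labelled arrays (1.51, SE 0.14, adjusted p = 0.000840). The SOX2-labelled arrays were nearly equal and under every array of the OCT4 and control (1118 and 1097.5) groups, and the call is stable. CCNE1 (0.57) and CDK6 (-0.78) did not pass (adjusted p = 0.0984 and 0.0692).

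Metallothioneins, small proteins that bind zinc and copper and are induced by metals, differed toward OCT4 in part. Of 9 measured genes in the list, 4 were called higher on the OCT4-labelled arrays (2.99% of all genes tested) and 0 on the SOX2-labelled arrays (3.91%). The counts were 5 and 0 at an unadjusted limma p under 0.05, and the median was 0.57. MT1X read 7339 and 5631 on the OCT4-labelled arrays and 1467 and 2236 on the SOX2-labelled arrays (1.85, SE 0.28, adjusted p = 0.00813). MT1G read 1684 and 2548 on the OCT4-labelled arrays and 773 and 701 on the SOX2-labelled arrays (1.55, SE 0.19, adjusted p = 0.00310). The control arrays (10575.5 and 6094 for MT1X, 2947 and 3280.5 for MT1G) lay in or above the range of the OCT4-labelled arrays. MT1H differed by 1.46 (adjusted p = 0.00925) and MT1E by 1.16 (adjusted p = 0.0193). The sequences of these genes are close to each other, so a probe may bind several of them, and the 4 calls may not be independent. MT1G and MT1H are stable, MT1X is not and MT1E is not (0.0923); the count was 3 or 4 whichever array was left out and 2 with the 4 arrays of the comparison alone, where MT1H lost the call (adjusted p = 0.0776). MTF1, the factor that switches these genes on, differed by -0.49 and did not pass (adjusted p = 0.343).

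Early neural genes were split. Of 20 measured, 5 were called higher on the SOX2-labelled arrays (3.91% of all genes tested) and 2 on the OCT4-labelled arrays (2.99%), with a median of -0.25. Beside SOX21 and SIX6, FABP7, a fatty acid-binding protein of radial glia, read 176 and 188 on the OCT4-labelled arrays and 570 and 641 on the SOX2-labelled arrays (-2.01, SE 0.13, adjusted p = 0.000234). DLX5, a homeobox factor of the anterior neural border and forebrain, read 116 and 124 on the OCT4-labelled arrays and 227 and 247.5 on the SOX2-labelled arrays (-1.33, SE 0.13, adjusted p = 0.00103). CDH2, N-cadherin, read 2082 and 1900.2 on the OCT4-labelled arrays and 4959 and 3514 on the SOX2-labelled arrays (-1.09, SE 0.25, adjusted p = 0.0387), with the SOX2-labelled replicates apart. Toward OCT4, SOX3, a close relative of SOX2, read 437 and 615 on the OCT4-labelled arrays and 205 and 243 on the SOX2-labelled arrays (1.40, SE 0.22, adjusted p = 0.00878).

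OTX1, a homeobox factor of the forebrain, was at least 1.22-fold higher on the OCT4-labelled arrays (adjusted p = 0.0163) and under the filter on the SOX2-labelled ones. Of the 5 neural markers on the array, PAX6 read 106 and 113 against 112 and 105 and SOX1 99.9 and 92.5 against 100.8 and 99, all under the filter. DCX read 116 and 130 against 112 and 124. TUBB3 read 2224.5 and 1819 against 2696 and 2110, and NES 895 and 673 against 877.5 and 1758, both with overlap. Their sum was 2828 to 3441 on the OCT4-labelled, 3898 to 4196 on the SOX2-labelled and 2982 to 3664 on the control arrays. SOX21, SIX6, FABP7 and DLX5 are stable, and CDH2, SOX3 and OTX1 are not (0.197, 0.0630 and 0.119). Without SOX2-labelled replicate 1, 8 members were called higher on the SOX2-labelled arrays. The count of 2 toward OCT4 was 1 without either OCT4-labelled or either NANOG array and 3 without SOX2-labelled replicate 2. SOX21 and SOX3 were also the only calls among 11 measured SOX genes other than SOX2, and they pointed in opposite directions. Of all genes tested, 6.9% were called.

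Genes of neuronal differentiation were split as well, with 3 of 27 called higher on the OCT4-labelled arrays and 2 on the SOX2-labelled arrays and a median of -0.05. Over all genes tested the shares were 2.99% and 3.91%. Toward OCT4 stood ELAVL2, NSG1 and ISL1, a LIM-homeodomain factor (0.60, SE 0.12, adjusted p = 0.0253). Toward SOX2 stood TAGLN3 and TAC1, the precursor of substance P. TAC1 read 268 and 259 on the OCT4-labelled arrays and 646 and 779 on the SOX2-labelled arrays (-1.59, SE 0.14, adjusted p = 0.000601), and both its further probes passed the same way. ISL1 is not stable (0.147), while ELAVL2, NSG1, TAGLN3 and TAC1 are.

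Among 33 measured pluripotency genes, 2 were called higher on the OCT4-labelled arrays (2.99% of all genes tested) and 3 on the SOX2-labelled arrays (3.91%), and the median was 0.08. TERF1, given above, and SCGB3A2, a secretoglobin, were toward OCT4. SCGB3A2 read 1089 and 657 on the OCT4-labelled arrays and 332 and 409.5 on the SOX2-labelled arrays (1.30, SE 0.28, adjusted p = 0.0286). SFRP2, a secreted antagonist of WNT ligands, read 780.2 and 651 on the OCT4-labelled arrays and 1191 and 1596.5 on the SOX2-labelled arrays (-0.995, SE 0.19, adjusted p = 0.0174). In both genes the brighter group's replicates were the further apart. POLR3G, a subunit of RNA polymerase III, read 1281 and 1502 on the OCT4-labelled arrays and 2098.5 and 2095 on the SOX2-labelled arrays (-0.61, SE 0.12, adjusted p = 0.0193), although its further probe pointed the other way. CDH1, E-cadherin, read 1619 and 1539 on the OCT4-labelled arrays and 2111 and 2671.5 on the SOX2-labelled arrays (-0.60, SE 0.14, adjusted p = 0.0429).

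Some larger differences in this list did not pass with the brightest probe. DNMT3B, a de novo DNA methyltransferase, read 3245 and 2687 against 1165 and 1900.2 (1.01, SE 0.26, adjusted p = 0.0522). Its 3 further probes had the same sign, and 2 of them passed in the fit of all 21828 probes. GDF3, a ligand of the transforming growth factor family, differed by 1.51 without passing (adjusted p = 0.0870). TERF1 is the only stable call of this list; SCGB3A2, SFRP2, POLR3G and CDH1 reached 0.167, 0.127, 0.141 and 0.208. Without SOX2-labelled replicate 1 the counts were 5 and 4, without SOX2-labelled replicate 2 they were 5 and 2, without either control array 4 and 2, without OCT4-labelled replicate 2 they were 2 and 1, and without OCT4-labelled replicate 1 or either NANOG array 1 and 0. The median difference between the SOX2-labelled replicates in this list was -0.34, with replicate 2 the brighter.

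Matrix and adhesion genes outside the collagens were higher on the SOX2-labelled arrays in 9 of 26 measured members (3.91% of all genes tested) and on the OCT4-labelled arrays in 1 (2.99%), with 20 differences below 0 and a median of -0.52. FBN2, a fibrillin of microfibrils, read 728 and 859.6 on the OCT4-labelled arrays and 3076 and 2929 on the SOX2-labelled arrays (-1.98, SE 0.25, adjusted p = 0.00348). SPOCK1, a proteoglycan, read 168 and 181 on the OCT4-labelled arrays and 473.5 and 444 on the SOX2-labelled arrays (-1.66, SE 0.12, adjusted p = 0.000345). ITGAV, an integrin chain that binds vitronectin and fibronectin, read 386.5 and 374 on the OCT4-labelled arrays and 999.7 and 1056 on the SOX2-labelled arrays (-1.54, SE 0.17, adjusted p = 0.00218). In all 3 the control arrays lay much nearer the OCT4-labelled ones.

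SPOCK2 differed by -1.46 (adjusted p = 0.00918), ITGA5, the fibronectin receptor chain, by -1.26 (adjusted p = 0.00505) and LAMB1, a laminin chain, by -1.10 (adjusted p = 0.0167). LAMA4, another laminin chain, was at least 1.28-fold higher on the OCT4-labelled arrays (adjusted p = 0.0234). FBN2, SPOCK1, ITGAV and ITGA5 are stable; SPOCK2, LAMB1 and LAMA4 are not (0.0713, 0.107 and 0.154). The count of 9 was 4 without OCT4-labelled replicate 2, 14 without SOX2-labelled replicate 1 and 6 to 8 without any other array.

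Among 23 collagen chains, 6 were called higher on the SOX2-labelled arrays (3.91% of all genes tested) and 2 on the OCT4-labelled arrays (2.99%), with a median of -0.31. The chains of basement membrane collagen, COL4A1 (-1.22, SE 0.13, adjusted p = 0.00161) and COL4A2 (-1.23, SE 0.28, adjusted p = 0.0365), and COL18A1 (-0.99, SE 0.24, adjusted p = 0.0447) were among the 6. COL4A1 read 883 and 870.1 on the OCT4-labelled arrays and 2075 and 1896 on the SOX2-labelled arrays, with each pair of replicates close. COL11A1, a fibrillar chain, read 147 and 159 on the OCT4-labelled arrays and 323 and 321 on the SOX2-labelled arrays (-1.34, SE 0.18, adjusted p = 0.00535). COL22A1 differed by -1.53 (adjusted p = 0.0142) and COL12A1 by -0.70 (adjusted p = 0.0370), with its further probe of opposite sign.

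The 2 collagens toward OCT4 were both fibrillar. COL5A2 is given above, and COL1A2 read 522 and 753 on the OCT4-labelled arrays and 293 and 255 on the SOX2-labelled arrays (1.34, SE 0.20, adjusted p = 0.00693). The further probe of COL1A2 had the same sign but did not pass. COL1A1, the partner of COL1A2 in type I collagen, read 401 and 705 against 540.2 and 645 and overlapped. COL4A1, COL5A2 and COL1A2 are stable, though COL1A2 lost the call with the 4 arrays of the comparison alone (adjusted p = 0.0622), and COL4A2, COL18A1, COL11A1, COL22A1 and COL12A1 are not (0.193, 0.209, 0.0518, 0.0589 and 0.211). The count of 6 was 2 without either OCT4-labelled array, 3 without either NANOG array and 11 without SOX2-labelled replicate 1.

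Fibroblast markers, as markers of another cell type, were called in both directions, with a median of -0.06. Of 12 measured, 2 were called toward SOX2 (VIM and ACTA2), where 3.91% of all genes tested were. The 2 called toward OCT4 were S100A4 and COL1A2, where 2.99% of all genes tested were. Of 18 on the array, 9 were over the filter on all 4 arrays and 5 were under it on all 4, and their summed intensity was 17238 to 17329 on the OCT4-labelled, 23154 to 24133 on the SOX2-labelled and 11608 to 16687 on the control arrays. The sum was carried by VIM, which read 5153 and 4734 on the OCT4-labelled arrays and 9018 and 10172 on the SOX2-labelled arrays (-0.96, SE 0.18, adjusted p = 0.0184), and TAGLN, at 6025 and 6451 against 10172 and 7221. ACTA2, smooth muscle actin, read 553 and 564 on the OCT4-labelled arrays and 1019 and 888 on the SOX2-labelled arrays (-0.82, SE 0.14, adjusted p = 0.0117), while S100A4 was toward OCT4 (1.22, SE 0.20, adjusted p = 0.00981), as was COL1A2, given above. THY1 differed by 0.63 and did not pass (adjusted p = 0.120). LUM, POSTN, PRRX1 and MMP2 were under the filter on all 4 arrays, and DCN and PDGFRA read at most 128 and 124. VIM, ACTA2 and S100A4 are not stable (0.124, 0.0826 and 0.0787). The part of such cells in the matrix result was not tested.

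Among 19 epithelial and mesenchymal genes, 4 were called higher on the SOX2-labelled arrays (3.91% of all genes tested) and 1, EBF3, on the OCT4-labelled arrays (2.99%). The 4 were VIM and CDH2, held to mark mesenchymal cells, CDH1, which marks epithelial cells, and ANXA1, an annexin (-0.79, SE 0.16, adjusted p = 0.0265; not stable, 0.173). The count of 4 was 0 without any 1 OCT4-labelled or NANOG array, 2 without SOX2-labelled replicate 2 and 6 without SOX2-labelled replicate 1. TWIST1, a transcription factor of mesenchyme, read 252 and 215 against 163 and 178 (0.57, SE 0.14, adjusted p = 0.0519), and control arrays 119.7 and 128.

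Blood and endothelial markers were mostly under the filter, 14 of 19 on all 4 arrays, and their sum was 3350 to 3362 on the OCT4-labelled against 2337 to 2354 on the SOX2-labelled arrays, a gap that LDB2 made. CD34, a marker of blood and endothelial progenitors, read 117 and 132 on the OCT4-labelled arrays and 166 and 173 on the SOX2-labelled arrays (-0.63, SE 0.15, adjusted p = 0.0448; not stable, 0.255).

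**Figure D4:**
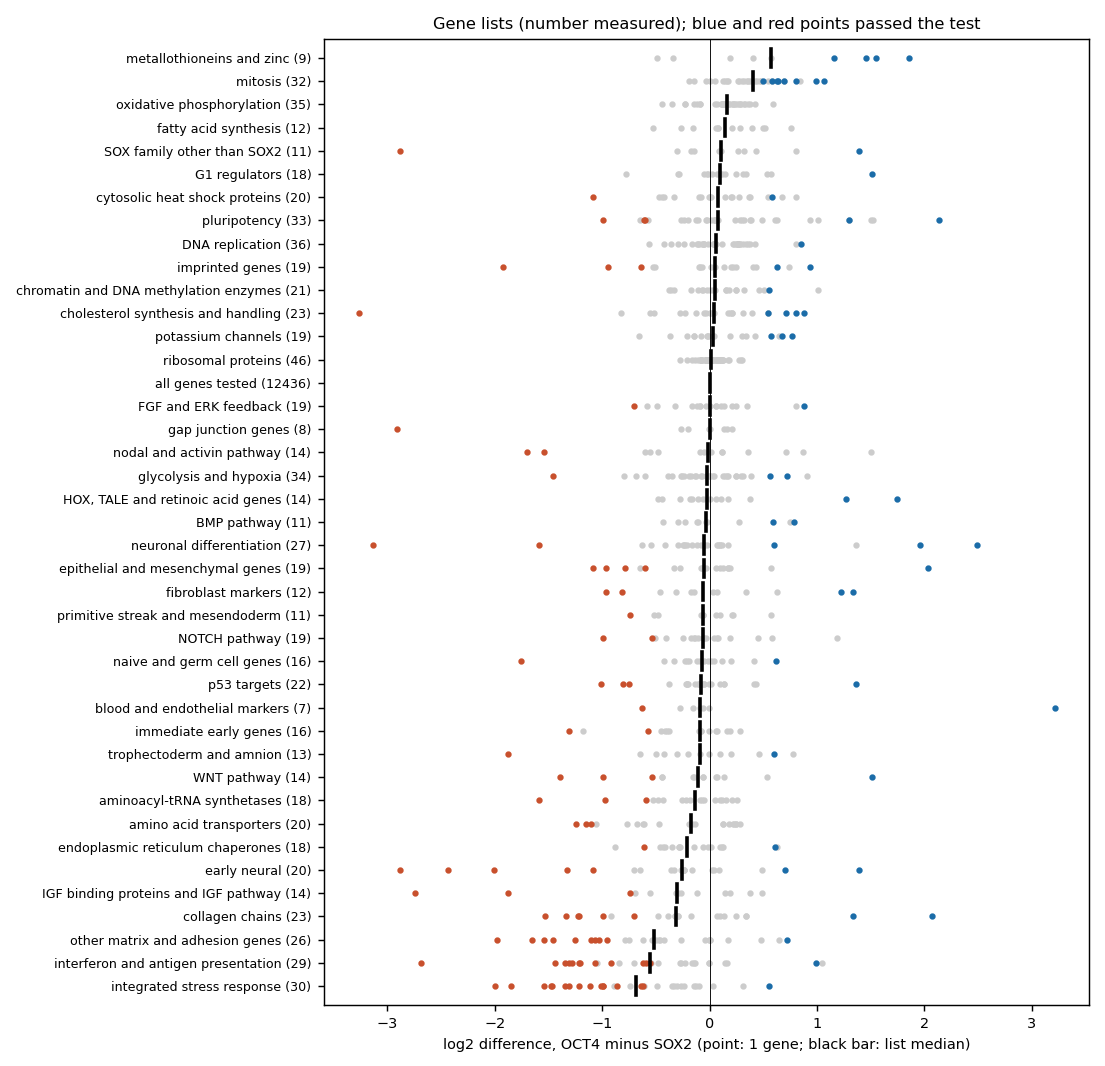
Log2 difference (OCT4-labelled minus SOX2-labelled) of every measured member of the 40 gene lists, ordered by the list's median (black bar), with the number of measured genes in brackets and the median of all 12436 genes as a row of its own. Red and blue points passed the test and grey points did not; the integrated stress response has the lowest median (-0.69) and the metallothioneins the highest (0.57).

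In the plot of all lists, most medians lie close to 0 while single members lie far out on either side. Signalling pathways were of this kind, and their counts stand beside 3.91% of all genes tested called toward SOX2 and 2.99% toward OCT4. In the nodal and activin pathway 2 of 14 were called higher on the SOX2-labelled arrays, INHBE and FST, follistatin, which binds activin; FST read 240.3 and 301 on the OCT4-labelled arrays and 641 and 947 on the SOX2-labelled arrays (-1.70, SE 0.21, adjusted p = 0.00374), and it is stable. In the WNT pathway 3 of 14 were called toward SOX2, FZD7, a receptor (-1.39, SE 0.25, adjusted p = 0.0154), SFRP2, and FRZB, another secreted antagonist (-0.54, SE 0.12, adjusted p = 0.0301), and 1, CCND1, toward OCT4. WNT10B, the WNT ligand given above, was not among the 14 and is a stable call toward SOX2. The count of 3 was 0 without either OCT4-labelled array and 1 without either NANOG array. FZD7 read 532 and 541 on the OCT4-labelled arrays and 994 and 1804 on the SOX2-labelled arrays, with its SOX2-labelled replicates apart. FZD7 and FRZB are not stable (0.101 and 0.183).

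In the BMP pathway 2 of 11 were called toward OCT4, ID3 (0.78, SE 0.12, adjusted p = 0.00813) and ID1 (0.59, SE 0.15, adjusted p = 0.0496), inhibitors of helix-loop-helix factors that BMP signalling induces. ID3 read 1401 and 1280.1 on the OCT4-labelled arrays and 825 and 768.5 on the SOX2-labelled arrays, and the control arrays read 1499 and 1594. Neither is stable (0.0728 and 0.260). NOTCH pathway calls were 2 of 19 toward SOX2, HEY1, a target repressor (-0.99, SE 0.18, adjusted p = 0.0165), and JAG1, a ligand (-0.53, SE 0.11, adjusted p = 0.0286), neither stable (0.0667 and 0.180). Among 19 genes of FGF signalling and ERK feedback, SPRY1, a feedback inhibitor, was toward OCT4 (0.88, SE 0.16, adjusted p = 0.0144) and FGFR3, a receptor, toward SOX2 (-0.71, SE 0.17, adjusted p = 0.0436), the latter with a further probe of opposite sign, and neither is stable (0.114 and 0.212).

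Of 14 genes of the insulin-like growth factor pathway, 3 were called toward SOX2 (3.91% of all genes tested) and 0 toward OCT4 (2.99%). The counts were 5 and 0 at an unadjusted limma p under 0.05, and the median was -0.30. The count of 3 was 5 without SOX2-labelled replicate 1. They were IGFBP5, IGFBP3, another binding protein, which read 168 and 201.5 on the OCT4-labelled arrays and 606 and 521 on the SOX2-labelled arrays (-1.88, SE 0.17, adjusted p = 0.000830), and IRS2, an adaptor of the receptors (-0.74, SE 0.14, adjusted p = 0.0170). IGFBP5 and IGFBP3 are stable, each with its further probe passing the same way, and IRS2 is not (0.114).

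Among 14 HOX, TALE and retinoic acid genes, 2 were called toward OCT4 (2.99% of all genes tested). CYP26A1, which degrades retinoic acid, read 537 and 611 on the OCT4-labelled arrays and 215.5 and 187 on the SOX2-labelled arrays (1.75, SE 0.16, adjusted p = 0.000766), is stable and has a further probe that passed the same way. PBX3, a TALE homeodomain factor, read 1199 and 1301 on the OCT4-labelled arrays and 698 and 423 on the SOX2-labelled arrays (1.27, SE 0.23, adjusted p = 0.0145; not stable, 0.104). Imprinted genes, expressed from one parental allele, were called toward SOX2 in 3 of 19 (3.91% of all genes tested) and toward OCT4 in 2 (2.99%). DLK1, a NOTCH-like membrane protein, read 145 and 223 on the OCT4-labelled arrays and 482 and 646 on the SOX2-labelled arrays (-1.92, SE 0.27, adjusted p = 0.00551), and is stable, with control arrays at 475 and 385, but lost the call with the 4 arrays of the comparison alone (adjusted p = 0.0539). GRB10 (-0.95) and SGCE (-0.64) were also toward SOX2, and NNAT (0.94) and NDN (0.63) toward OCT4, none of these 4 stable. Of the 2 further probes of GRB10, 1 had the opposite sign and 1 passed the same way.

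Markers of other early lineages gave 1 or 2 calls a list, where 6.9% of all genes tested were called. Of 11 genes of the primitive streak and mesendoderm, CXCR4, a chemokine receptor of definitive endoderm, was called toward SOX2 (-0.74, SE 0.15, adjusted p = 0.0212; not stable, 0.139). EOMES, a factor of the streak, was under the filter on the OCT4-labelled arrays and read 132 and 148.5 on the SOX2-labelled arrays, without passing (adjusted p = 0.0641). Of 13 trophectoderm and amnion genes, IGFBP3 was toward SOX2 and ISL1 toward OCT4. Of 16 naive and germ cell genes, PRDM1, a repressor needed for germ cells in the mouse, read 126 and 118 on the OCT4-labelled arrays and 265 and 368 on the SOX2-labelled arrays (-1.76, SE 0.18, adjusted p = 0.00130) and is stable, and NLRP7 was toward OCT4 (0.62, SE 0.15, adjusted p = 0.0458; not stable, 0.252).

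Of 23 genes of cholesterol synthesis, sensing, modification and export, 4 were called toward OCT4 and 1, CH25H, toward SOX2, with a median of 0.04. Over all genes tested the shares were 2.99% and 3.91%. INSIG1, a sensor that holds back the pathway and is itself a target of it, read 604 and 630 on the OCT4-labelled arrays and 426 and 295 on the SOX2-labelled arrays (0.88, SE 0.18, adjusted p = 0.0257). TM7SF2, a sterol reductase, read 612 and 603 on the OCT4-labelled arrays and 364 and 368 on the SOX2-labelled arrays (0.80, SE 0.12, adjusted p = 0.00813). MSMO1 (0.71), a methylsterol oxidase with 1 of 2 further probes of opposite sign, and SQLE (0.55), the squalene epoxidase, were the others. None of the 4 is stable (0.147, 0.0650, 0.138 and 0.234), and the list's count toward OCT4 was 0 without either OCT4-labelled array and 1 without either NANOG array. The count of 1 toward SOX2 was 4 without SOX2-labelled replicate 1 and 2 without SOX2-labelled replicate 2.

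Lists of energy metabolism and ribosomal proteins gave 0 to 3 calls each, where 6.9% of all genes tested were called. Of 35 genes of oxidative phosphorylation 0 were called by limma (7 toward OCT4 and 2 toward SOX2 at an unadjusted p under 0.05), with 27 differences above 0, a median of 0.16 and a range from -0.44 (NDUFV1) to 0.59 (ATP5MC1). Of 46 ribosomal protein genes 0 were called (1 at an unadjusted p under 0.05), and all lay between -0.28 (RPL34) and 0.31 (RPL13). Of 12 fatty acid synthesis genes 0 were called (4 at an unadjusted p under 0.05, all toward OCT4), and ACSS2, which makes acetyl-CoA, differed most (0.76, SE 0.19, adjusted p = 0.0547). Of 34 genes of glycolysis and hypoxia, ADM, the hormone adrenomedullin, read 2566 and 3029 on the OCT4-labelled arrays and 7769.6 and 7430.1 on the SOX2-labelled arrays (-1.46, SE 0.36, adjusted p = 0.0496), with control arrays at 1508 and 3901. EGLN3, an oxygen sensor, was at least 1.36-fold higher on the OCT4-labelled arrays (adjusted p = 0.0135) and PFKM, a glycolytic kinase, higher there too (0.56, SE 0.13, adjusted p = 0.0360). None of the 3 is stable (0.243, 0.0969 and 0.211).

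Other stress groups gave 2 calls each, where 6.9% of all genes tested were called. Among 20 cytosolic heat shock genes, HSPA1A, the inducible member, read 187 and 195 on the OCT4-labelled arrays and 333 and 384 on the SOX2-labelled arrays (-1.09, SE 0.13, adjusted p = 0.00299) and is stable, though its probe may also bind the near-identical HSPA1B. The probe annotated to HSPA1B differed by -0.466 and did not pass (SE 0.18, limma adjusted p = 0.1685). HSPA8, the constitutive one, read 10203 and 9227 on the OCT4-labelled arrays and 6423 and 6599.8 on the SOX2-labelled arrays (0.58, SE 0.12, adjusted p = 0.0263; not stable, 0.174). Among 18 endoplasmic reticulum chaperones, DNAJB11 was toward SOX2 (-0.61, SE 0.11, adjusted p = 0.0133) and SDF2L1 toward OCT4 (0.61, SE 0.13, adjusted p = 0.0248), with a median of -0.21 and neither stable (0.0951 and 0.160). Immediate early genes were called in 2 of 16, both toward SOX2, ATF3 and KLF6 (-0.57, SE 0.13, adjusted p = 0.0320; not stable, 0.188).

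Of 22 p53 targets, 3 were called toward SOX2, where 3.91% of all genes tested were. They were SESN2, GADD45A (-0.81, SE 0.18, adjusted p = 0.0370), a growth arrest gene, and TNFRSF10B (-0.75, SE 0.12, adjusted p = 0.0112), a death receptor. RRM2B, a subunit of ribonucleotide reductase, was toward OCT4 and read 370.3 and 385 on the OCT4-labelled arrays and 227 and 134 on the SOX2-labelled arrays (1.36, SE 0.27, adjusted p = 0.0217). GADD45A, TNFRSF10B and RRM2B are not stable (0.169, 0.0880 and 0.127).

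Of the remaining groups, potassium channels were called toward OCT4 in 3 of 19, where 2.99% of all genes tested were. They were KCNK12 (0.77, SE 0.16, adjusted p = 0.0254), KCNJ2 (0.68, SE 0.13, adjusted p = 0.0184) and KCND2, the last at least 1.22-fold (adjusted p = 0.0470). KCNK12 read 377.5 and 450.3 on the OCT4-labelled arrays and 291 and 232 on the SOX2-labelled arrays, both below the control arrays at 961 and 1023. KCNJ2 read 294 and 301 on the OCT4-labelled arrays and 220 and 186 on the SOX2-labelled arrays, both above the control arrays at 131 and 128. None is stable (0.168, 0.117 and 0.258), and all 3 lost the call without any 1 OCT4-labelled or NANOG array. Of 21 chromatin and DNA methylation enzymes, KDM2B, a histone demethylase, was toward OCT4 (0.55, SE 0.13, adjusted p = 0.0439), with a further probe of opposite sign and not stable (0.241). TET1, which oxidises methylcytosine, read 427 and 364 against 296 and 284.5 (0.50, SE 0.18, adjusted p = 0.138). Of 8 gap junction genes GJA4 was the only call, where 6.9% of all genes tested were called. PANX1 (-0.26) did not pass (adjusted p = 0.198).

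**Figure D5:**
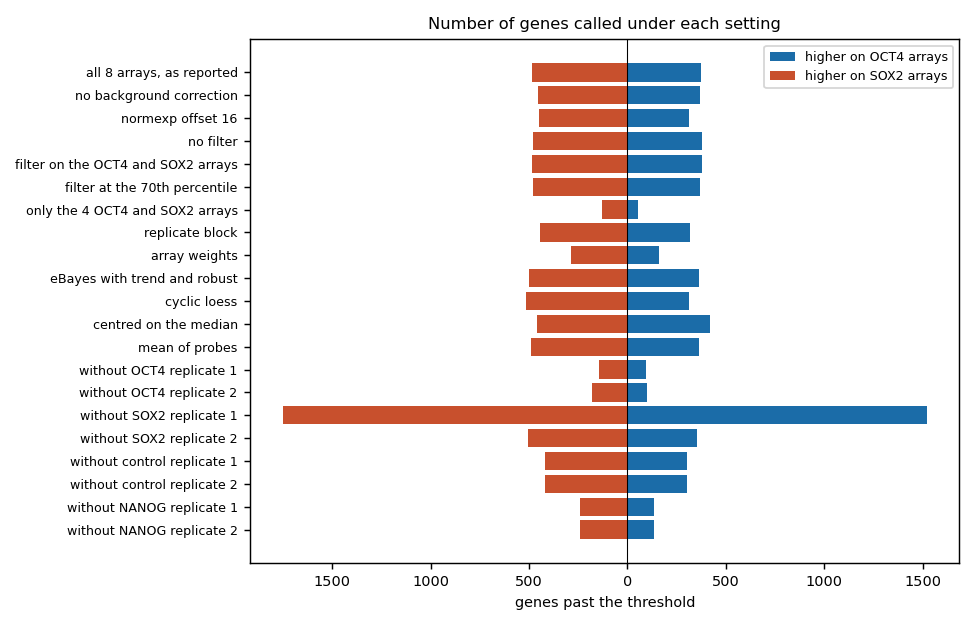
Number of genes past an adjusted p of 0.05 under each setting, with genes higher on the SOX2-labelled arrays to the left of 0 and on the OCT4-labelled arrays to the right. The reported fit has 486 and 372; leaving out SOX2-labelled replicate 1 gives 1751 and 1522, and fitting the 4 arrays alone gives 130 and 54.

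In the plot of counts by setting, changes of background correction, filter, scaling or probe summary gave between 763 and 880 calls, and leaving out arrays gave between 238 and 3273. In each of the 20 alternatives drawn there the count toward SOX2 exceeded that toward OCT4, most narrowly with centring on the median, at 461 against 419.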

How the data were processed

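RNA from 8 samples of H1 cells was measured on Illumina arrays, 1 per sample. The intensity values used are those the authors deposited, on a linear scale, with equal distributions on every array. No source used here names the normalisation tool. A further deposited table has 16 per-sample columns whose names match no label, and they were not used.

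Probe names came from the platform annotation: 30113 probes had 1 symbol, 8 several and 17202 none, and 30074 matched a RefSeq gene number. In limma 3.58.1 under R 4.3.3, intensities were corrected with normexp (offset 50) and taken to log2. Probes were kept if at least 2 arrays exceeded 123.7 (the 60th percentile over all arrays), which needed no detection p-values. The brightest probe stood for its gene. All 8 arrays entered 1 fit of 4 group means (lmFit, eBayes, two-sided; 4 residual and 4.39 prior degrees of freedom, median residual SD 0.139). Where both arrays of a group were under the filter, a bound ("at least") is taken from log2 means of the uncorrected intensities, with each dim array at the filter intensity or its own value, whichever is higher. The number of arrays limits the precision.

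Members and gene lists were chosen with earlier results of these data known. Genes named were the 15 largest calls per direction without LOC or open reading frame symbols, up to 6 calls per direction of each of 40 lists, and the 3 largest differences of lists with fewer than 2 calls. ATF4, ISG15, IFITM3, MKI67, MTF1, GDF3 and HSPA1B were added after their values were seen. The procedure was also run on simulated data with the same spread for every gene and array, which these data do not have. That run is therefore no check of the calls made here.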

Additional observations from a re-analysis of the deposited data

How the results depend on the processing

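Leaving out 1 array could not turn the direction of a call, since the groups did not overlap in any called gene. Of the 20 alternatives, 12 changed the processing or the model and 8 left out 1 array, with the filter and the choice of probe still taken from all 8. All 858 calls kept their direction in all of them, and 137 passed in every one (42 toward OCT4, 95 toward SOX2). With only the 4 OCT4 and SOX2 arrays the counts were 184 in all, 54 toward OCT4 and 130 toward SOX2, and with array weights 446, 158 and 288. Leaving out 1 array gave 238 to 3273 in all, 93 to 1522 toward OCT4 and 145 to 1751 toward SOX2. The counts moved by over 1.5 times without OCT4-labelled replicate 1, OCT4-labelled replicate 2, SOX2-labelled replicate 1, NANOG replicate 1 or NANOG replicate 2. An arm left with 1 array is assumed to vary like the other groups. The cause of these shifts was not tested. Replicate numbers are shared between groups only as numbers: the replicate differences of the OCT4 and SOX2 pairs correlated at -0.108, and with the replicate block 760 genes were called, 317 toward OCT4 and 443 toward SOX2. Among uncalled genes, GJB7 turned to -0.001 without OCT4-labelled replicate 1 (0.42 without OCT4-labelled replicate 2) and RPL14 to -0.061 with the mean of its probes. Of the 40 lists, 25 kept the sign of their median in all alternatives and 15 did not. Of 251 called genes with further probes, 91 had another probe pass the same way, 9 had only probes of opposite sign and 0 had a probe called the opposite way by limma. Dim probes limit the comparison: 49 called genes were under the filter on both OCT4-labelled arrays and 38 on both SOX2-labelled arrays.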
